A study of Mus musculus with 9 samples.

Results

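The genes described here fold proteins in the endoplasmic reticulum (ER) or modify, chaperone and trim collagen, and they were measured in the right ventricle of mice with and without pressure overload. The list held 34 genes, 21 general ER chaperones and stress factors and 13 genes of collagen processing. A gene counted as measured where its exact symbol stood alone against a probe set in the platform's probe-gene table. That held for 33 of the 34, out of 18193 genes in all. Fkbp10, a prolyl isomerase that assists collagen folding, had no such probe set and was not analysed here, which left all 21 ER members and 12 of the 13 collagen members. Where a gene had several probe sets, the one brightest on average across the 9 arrays stood for it.

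The study tied a band around the pulmonary artery, which narrows the outflow of the right ventricle and raises the pressure it works against. Arrays came from 5 banded ventricles and from 4 ventricles of sham-operated mice. All were male C57BL6J mice of 6 to 8 weeks with no transgene named in the labels, and the tissue was whole right ventricular myocardium. How long after surgery the hearts were taken is not stated in the labels. The series' design text gives 5 as the number of banded and sham-operated mice, and 4 sham samples are analysed here. Replicates are numbered without word of whether each is a separate animal, so the p-values measure the spread between these samples, which may be technical.

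Secreted and membrane proteins fold in the ER, where the Hsp70 protein BiP, lectin chaperones and disulfide isomerases act on the new chains. When unfolded protein accumulates, the sensors ATF6, IRE1 and PERK switch on the unfolded protein response, which raises chaperones and degradation factors through ATF6, spliced XBP1 and ATF4. Collagen needs further steps of its own in the same compartment. Its prolines and lysines are hydroxylated, the triple helix is held by dedicated chaperones, and its end propeptides are cut off outside the cell. In the heart, fibroblasts make most of the fibrillar collagen, and scarring of the overloaded ventricle is known to raise it.

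Values are log2 expression from one-colour Affymetrix arrays, with a floor at 2.198 shared by all arrays. A group mean under 4.198, a line drawn 2 log2 units over that floor, is called dim here, and only a bound on the fold is given against it. The number of arrays limits the precision. A gene was called where limma's moderated test gave a Benjamini-Hochberg adjusted p under 0.05 over all genes. By that rule 18.4% of all genes were higher in banding and 20.0% were lower. Among the 11013 genes above the dim level in either group, as every measured member was, the shares were 29.8% and 32.2%. Every banding array lay above every sham array in 17.4% of genes and below every sham array in 19.3%. Array medians lay between 3.23 and 3.31. Cardiomyocyte markers were bright in both groups, at 15.23 ± 0.10 for the 5 banding arrays (mean ± SD) and 15.51 ± 0.02 for the 4 sham arrays. Of these 8 markers, 5 were called lower in banding and 0 higher. Markers of other cells also moved with the groups. Fibroblast markers, one of which is the collagen gene Col1a1, averaged 12.04 ± 0.17 in banding and 10.67 ± 0.08 in sham, with 6 of 7 genes called higher. Without Col1a1, a choice made after the values were seen, the other 6 averaged 11.66 ± 0.19 and 10.86 ± 0.09. Macrophage markers averaged 11.15 ± 0.21 and 10.19 ± 0.11, with 5 of 6 called higher. Smooth muscle markers averaged 9.74 ± 0.36 and 7.80 ± 0.46 (3 of 4 called higher), and endothelial markers 9.51 ± 0.22 and 8.87 ± 0.13 (5 of 6 called higher). The smooth muscle genes were uneven, at 4.75 for Cnn1 (dim in sham), 2.55 for Tagln, 0.33 for Acta2 and 0.15 for the uncalled Myh11. Hepatocyte transcripts, which a ventricle should lack, ran from 8.72 to 12.82 on the sham arrays and from 2.86 to 4.75 on the banding arrays, with all 12 markers called lower. The difference between the 3' and 5' probe sets of the Actb control was 0.86 ± 0.03 in banding and 1.06 ± 0.08 in sham, and an exact permutation test gave p = 0.00794, which these group sizes cannot go below, or 0.0175 adjusted over 11 array measures. The part of these differences in the results below was not tested unless a value is given for it.

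The comparison asked which steps of folding and of collagen processing changed in the overloaded ventricle. Collagen processing rose almost throughout, while the general ER genes divided. Of 12 collagen members, 11 were called higher (91.7%), 0 were lower and Pcolce2 was not called. Of 21 ER members, 9 were called higher (42.9%), 2 were lower (9.52%) and 10 were not called. The median difference was 1.30 log2 units for the collagen members and 0.35 for the ER members, beside -0.015 over the genes above the dim level in either group. A 2-fold or larger rise was called for 8 collagen members, but among ER members for 2, Edem1 and Pdia3. Of the 11013 genes above the dim level in either group, 2330 were called with a 2-fold or larger difference in either direction. The groups did not overlap, with banding above sham, for 11 collagen members and for 8 ER members, and banding lay below sham for 2 ER members. Over the same 11013 genes, every banding array lay above every sham array in 3058 and below every sham array in 3408. The members were chosen as families with earlier results of these data known. These counts therefore only describe them, and no test of one family against the other was made. Because the tissue is bulk, more cells that make collagen and more of these transcripts per cell cannot be told apart.

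**Figure D1:**
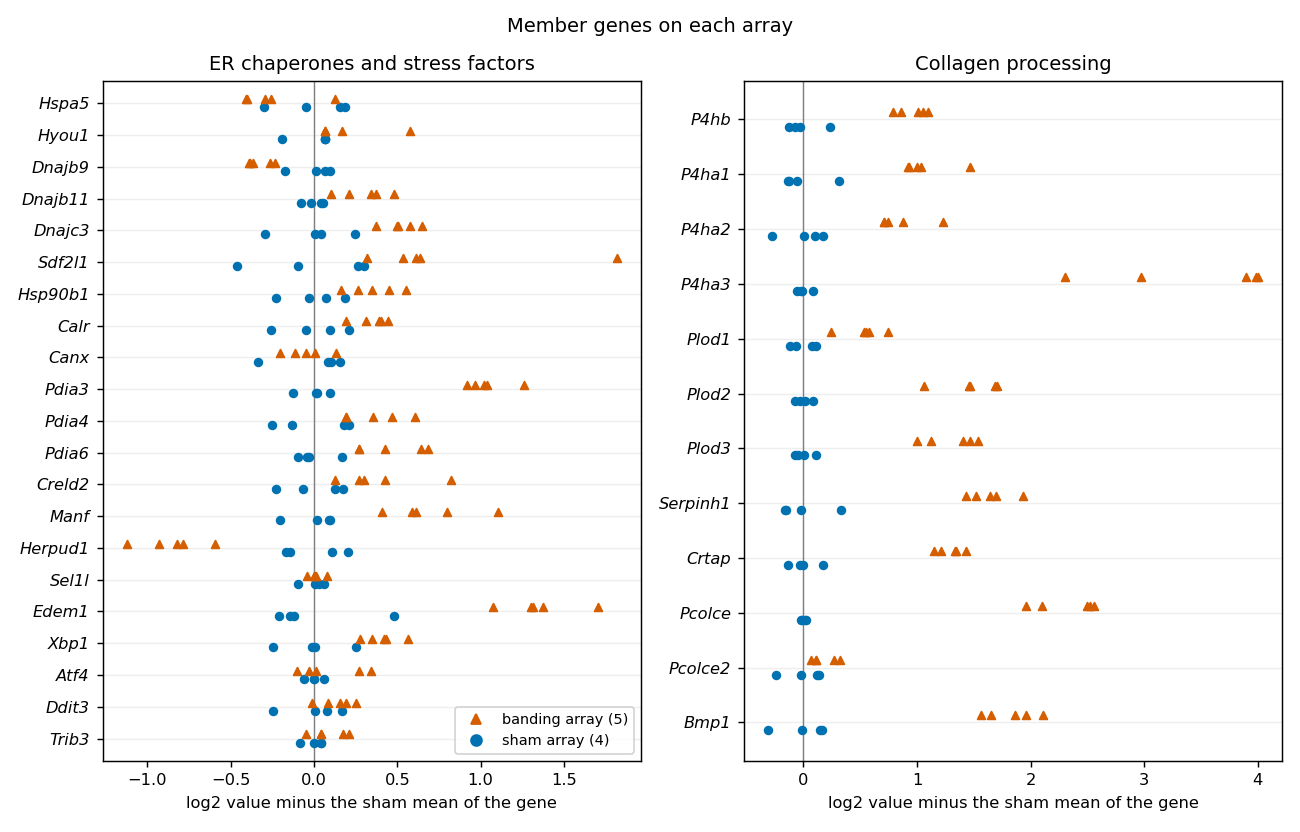
Log2 value of each measured member on every array, minus that gene's mean over the 4 sham arrays. Triangles are banding arrays and circles sham arrays, with the ER members on the left and the collagen members on the right. In 11 of 12 collagen members the triangles lie clear to the right of the circles, while the ER members range from Herpud1 on the left to Edem1 on the right.

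The Hsp70 system of the ER did not move as one. Hspa5 encodes BiP, the central chaperone and the classic reporter of ER stress. Its values were 13.00, 13.01, 13.15, 13.11 and 13.54 on banding replicates 1 to 5 and 13.60, 13.57, 13.11 and 13.36 on sham replicates 1 to 4. The groups overlapped, and the difference was -0.25 ± 0.14 log2 units (SE, adjusted p = 0.246), with a 95% interval from -0.59 to 0.09. Its other probe sets differed by 0.02 and 0.33, so neither a direction nor a change was found for Hspa5.

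Among the partners of BiP, Dnajc3, a co-chaperone that also restrains the PERK pathway, was 10.01, 10.14, 10.22, 10.14 and 10.29 in banding against 9.65, 9.69, 9.35 and 9.89 in sham. All banding arrays lay above all sham arrays, a 1.43-fold rise (0.52 ± 0.11, adjusted p = 0.00647), and all 5 of its probe sets were called higher. Dnajb11, which hands unfolded chains to BiP, rose 1.23-fold (0.30 ± 0.08, adjusted p = 0.0165), a call lost without sham replicate 2 (adjusted p = 0.0506). Dnajb9, a co-chaperone that shuts off the IRE1 sensor, went the other way. It stood at 11.35, 11.22, 11.32, 11.20 and 11.20 in banding and at 11.60, 11.65, 11.42 and 11.69 in sham, a 1.26-fold fall (-0.33 ± 0.06, adjusted p = 0.00408).

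Sdf2l1, a small ER protein that keeps BiP clients soluble, was 5.95, 5.92, 5.63, 5.85 and 7.13 in banding and 5.61, 5.22, 4.85 and 5.58 in sham. The groups did not overlap, but the margin was small and banding replicate 5 stood far above the rest. The difference of 0.78 ± 0.33 was not called (adjusted p = 0.106), and it was 0.52 without banding replicate 5. Hyou1, a large Hsp70 relative that exchanges BiP's nucleotide, had the same value of 6.52 on 6 of the 9 arrays. Its difference of 0.19 ± 0.12 was not called (adjusted p = 0.309).

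Some of the general ER genes share a promoter element. The ER stress element (ERSE) is the textbook site through which ATF6 with NF-Y raises chaperone genes. The letters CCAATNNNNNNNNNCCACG were searched on both strands of RefSeq promoters in GRCm38.p6, each running from 250 bases before to 50 after a gene's start. Of 32851 promoters, 39 held a match (0.119%). A promoter was listed for 29 of the 34 genes, and the match was found in 7 of 19 ER promoters and 0 of 10 collagen promoters. The stretches below show each match with 10 bases on either side, on the strand where the motif reads as written, with the fixed letters in capitals.
Hspa5, chr2:34772015-34772053, plus strand: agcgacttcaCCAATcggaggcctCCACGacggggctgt
Dnajc3, chr14:118937817-118937855, plus strand: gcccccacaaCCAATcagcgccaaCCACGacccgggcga
Pdia6, chr12:17266481-17266519, plus strand: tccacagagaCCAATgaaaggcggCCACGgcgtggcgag
Calr, chr8:84847065-84847103, plus strand: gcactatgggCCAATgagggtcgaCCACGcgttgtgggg
Canx, chr11:50325790-50325828, minus strand: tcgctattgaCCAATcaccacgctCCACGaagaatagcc
Creld2, chr15:88819510-88819548, minus strand: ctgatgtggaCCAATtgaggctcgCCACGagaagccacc
Hsp90b1, nearer the start, chr10:86705523-86705561, plus strand: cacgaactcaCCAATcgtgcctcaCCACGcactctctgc
Hsp90b1, farther from the start, chr10:86705628-86705666, minus strand: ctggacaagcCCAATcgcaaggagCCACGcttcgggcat

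Of the 7 genes with this element, Dnajc3, Pdia6, Calr and Hsp90b1 were called higher, and Hspa5, Canx and Creld2 were not called. Their differences ran from -0.25 for Hspa5, which was not called, to 0.52 for Dnajc3. Uncalled Creld2, at 0.39, lay above the called Calr (0.35) and Hsp90b1 (0.36). Differences between these genes were not tested. The shorter relative ERSE-II (ATTGG, any base, CCACG) was found in 12 of all promoters (0.0365%) and in those of Herpud1 and Dnajb11. Herpud1 also held TTGCATCA, a site for ATF4 dimers that 0.895% of all promoters hold. In the bases from 150 before its start, shown because this gene fell, both matches are in capitals, ATF4 site first.
Herpud1, chr8:94386279-94386428, plus strand: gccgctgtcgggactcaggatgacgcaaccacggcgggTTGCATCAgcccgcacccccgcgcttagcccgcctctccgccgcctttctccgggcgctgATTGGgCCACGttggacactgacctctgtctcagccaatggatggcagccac
The element TGACGTGG, which binds XBP1, was in 0.676% of all promoters and in none of the members'. A match is a description of these letters and does not show a working site.

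Herpud1 acts with Sel1l and Edem1 in degradation of misfolded ER proteins, and this trio split in 3 ways. Herpud1 organises the ubiquitin ligase complex. Its banding values were 10.99, 10.76, 10.80, 10.65 and 10.46, all below the sham values of 11.42, 11.69, 11.44 and 11.79. That was a 1.81-fold fall (-0.85 ± 0.12, adjusted p = 0.00111), and its other probe set gave -1.02 ± 0.12. Edem1, a lectin that hands misfolded glycoproteins to the degradation machinery, was 8.60, 8.83, 8.84, 8.90 and 9.23 in banding and 7.32, 7.38, 7.40 and 8.00 in sham. All banding values lay above the sham values, the steepest rise among the ER members at 2.55-fold (1.35 ± 0.18, adjusted p = 0.000687). Sel1l, the scaffold of the ligase, differed by 0.01 ± 0.04 (adjusted p = 0.989), with a 95% interval from -0.07 to 0.09. Of its dimmer probe sets, those at 0.23 ± 0.07 and 0.41 ± 0.10 were called higher among all probe sets (adjusted p = 0.0359 and 0.0158), so the probe sets of Sel1l disagree.

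Of the proteins that fold glycoproteins, Pdia3 and Calr were called higher and Canx was not called. Pdia3, the disulfide isomerase that works with the lectins calreticulin and calnexin, was 12.70, 12.99, 12.75, 12.65 and 12.77 in banding and 11.83, 11.75, 11.61 and 11.74 in sham. The groups were widely apart, a 2.06-fold rise (1.04 ± 0.08, adjusted p = 6.66e-05). Calr, which encodes calreticulin, rose 1.27-fold (0.35 ± 0.10, adjusted p = 0.0259) with overlapping groups. Its call was lost without banding replicate 1, 2 or 5 or sham replicate 2, where the adjusted p ran from 0.0582 to 0.0695, and its other probe sets gave 0.13 and were not called. Canx, which encodes the membrane-bound calnexin, differed by -0.05 ± 0.11 (adjusted p = 0.882).

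The isomerase Pdia6 rose 1.37-fold (0.46 ± 0.11, adjusted p = 0.0122), and all its banding values, 10.06 to 10.48, lay above the sham values of 9.70 to 9.96. Pdia4, a related isomerase, reached 0.36 ± 0.13 and was not called (adjusted p = 0.0665). Hsp90b1 encodes GRP94, the Hsp90 of the ER, which folds integrins and Toll-like receptors. It was called 1.28-fold higher (0.36 ± 0.11, adjusted p = 0.031) with overlapping groups. That call was lost on leaving out banding replicate 1, 2 or 5 or sham replicate 1, 2 or 3, where the adjusted p ran from 0.0531 to 0.0761. Its other probe set also gave 0.27.

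Stress proteins that cells secrete included Manf, a factor that binds BiP and is released under ER stress. Manf was 11.28, 11.25, 11.08, 11.46 and 11.77 in banding and 10.76, 10.46, 10.75 and 10.68 in sham, a 1.63-fold rise without overlap (0.70 ± 0.14, adjusted p = 0.0057). Creld2, which is induced with Manf in many cells, reached 0.39 ± 0.15 and was not called (adjusted p = 0.0847).

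Of the 4 regulators, Xbp1 alone was called. Xbp1 encodes the factor made from spliced mRNA when IRE1 is active, and these probe sets measure the gene's total RNA without telling spliced from unspliced. It was 12.06, 11.91, 11.98, 12.07 and 12.21 in banding and 11.65, 11.63, 11.39 and 11.89 in sham. Banding lay above sham by a narrow margin, a 1.33-fold rise (0.41 ± 0.10, adjusted p = 0.0152). Ddit3, which encodes the death-linked factor CHOP, differed by 0.13 ± 0.09 (adjusted p = 0.337), with a 95% interval from -0.08 to 0.35. Trib3, a target of ATF4 and CHOP, differed by 0.08 ± 0.06 (adjusted p = 0.344). Its other probe set, dim in sham, gave 0.26 ± 0.08 and was called higher among all probe sets (adjusted p = 0.0378).

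Atf4, the factor that cells translate when PERK slows protein synthesis, gave 2 answers. Its brightest probe set differed by 0.10 ± 0.10 (adjusted p = 0.513), with overlapping groups from 9.62 to 10.06 in banding and 9.66 to 9.78 in sham. A second probe set, of a design class prone to cross-hybridisation, had means of 9.18 ± 0.55 over the 5 banding arrays and 7.67 ± 0.27 over the 4 sham arrays (± SD), a difference of 1.51 ± 0.29 called among all probe sets (adjusted p = 0.0059). Averaging the probe sets of Atf4 gave a called rise (0.54, adjusted p = 0.0106).

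**Figure D2:**
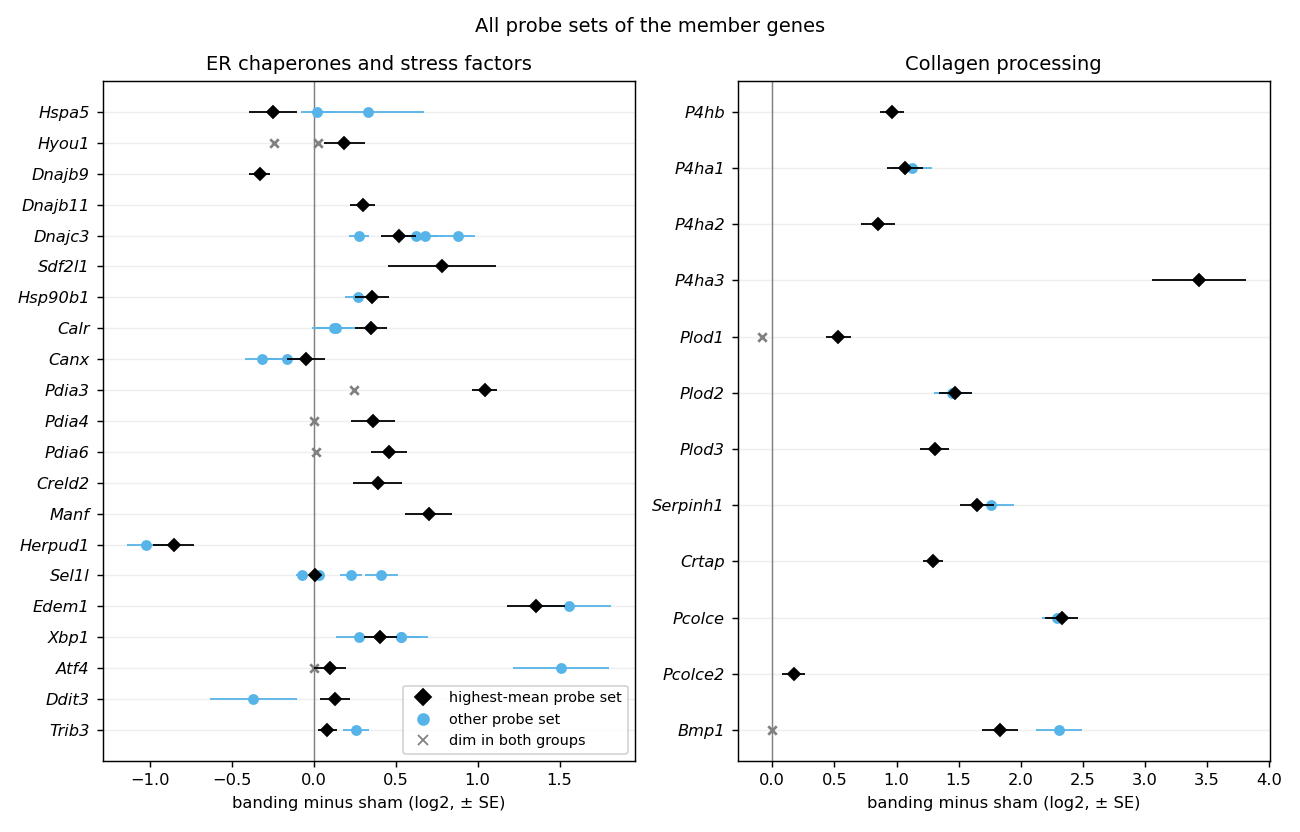
Difference between banding and sham (log2, ± SE) for all 69 probe sets of the members. Black diamonds mark the probe set used for each gene, blue circles the others, and grey crosses those dim in both groups. The collagen genes with several measured probe sets gave like differences, whereas Atf4 ranged from 0.10 to 1.51.

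Of the 17 members with more than 1 probe set above the dim level, 9 had all such probe sets called in the same direction and 0 had called probe sets of opposite sign. Atf4, Calr, Sel1l, Trib3 and Xbp1 had some called and some not, and none was called for Canx, Ddit3 and Hspa5. Each of these 8 genes is an ER member.

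Collagen hydroxylation opened the other family. Prolyl 4-hydroxylase, which makes the hydroxyproline that keeps the triple helix stable at body heat, joins an alpha subunit to the disulfide isomerase P4hb. All 3 alpha subunits and P4hb were called higher. P4hb was 12.17, 12.42, 12.11, 12.33 and 12.37 in banding and 11.24, 11.28, 11.19 and 11.55 in sham. It rose 1.95-fold without overlap (0.96 ± 0.09, adjusted p = 0.000206). P4hb is also a general isomerase, and counted with the ER members it would give 10 called higher there and 10 among the collagen members.

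P4ha1, the most widely used alpha subunit, was 9.45, 9.99, 9.55, 9.44 and 9.52 in banding and 8.84, 8.39, 8.47 and 8.39 in sham. The groups were apart, with a 2.10-fold rise (1.07 ± 0.14, adjusted p = 0.000787). P4ha2 rose 1.81-fold (0.85 ± 0.14, adjusted p = 0.00184). P4ha3, the least studied alpha subunit, was 5.21, 6.91, 5.88, 6.80 and 6.89 in banding against 2.99, 2.88, 2.89 and 2.85 in sham. Its sham values were all dim, so the rise is at least 4.40-fold (fitted difference 3.43 ± 0.38, adjusted p = 0.000316). With values raised to the dim level the difference was 2.14 and was still called.

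Lysyl hydroxylases prepare the lysines from which collagen cross-links are built, and all 3 rose. Plod2, which hydroxylates the telopeptides and favours the cross-links of scar tissue, was 11.06, 11.70, 11.46, 11.68 and 11.46 in banding and 10.08, 9.93, 10.01 and 9.97 in sham. It rose 2.78-fold (1.47 ± 0.13, adjusted p = 0.000141), far beyond the spread of either group. Plod3, which also adds sugars to hydroxylysine, rose 2.47-fold (1.31 ± 0.12, adjusted p = 0.000155). Plod1, which acts on the helix, rose 1.44-fold (0.53 ± 0.10, adjusted p = 0.0042), but was not called when both its probe sets were averaged, the other being dim (0.22, adjusted p = 0.0786).

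Both measured collagen chaperones rose. Serpinh1 encodes HSP47, which binds the folded triple helix in the ER and rides with it to the Golgi. It was 13.00, 13.50, 13.27, 13.21 and 13.09 in banding and 11.90, 11.55, 11.42 and 11.41 in sham. The lowest banding value stood over 1 log2 unit above the highest sham value, a 3.13-fold rise (1.65 ± 0.14, adjusted p = 0.000103). Crtap, part of the prolyl 3-hydroxylase complex, rose 2.45-fold (1.29 ± 0.08, adjusted p = 3.41e-05). The stretch before the start of Serpinh1 is printed for comparison with the chaperones above. It held none of the 4 motifs searched, so it carries no capitals.
Serpinh1, chr7:99353240-99353389, minus strand: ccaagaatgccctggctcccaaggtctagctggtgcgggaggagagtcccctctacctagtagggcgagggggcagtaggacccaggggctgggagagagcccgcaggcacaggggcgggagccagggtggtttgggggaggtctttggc

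Outside the cell, the protease Bmp1 cuts the C-propeptide from procollagen and Pcolce speeds that cut. Pcolce was 12.67, 13.20, 12.80, 13.26 and 13.23 in banding and 10.69, 10.72, 10.72 and 10.68 in sham, where the arrays hardly differed. It rose 5.02-fold (2.33 ± 0.14, adjusted p = 3.2e-05). Bmp1 was 8.43, 8.67, 8.53, 8.13 and 8.22 in banding and 6.56, 6.26, 6.73 and 6.72 in sham. The groups were apart by 3.56-fold (1.83 ± 0.14, adjusted p = 8.95e-05), and another probe set gave 2.31 ± 0.18. Pcolce2, the close relative of Pcolce, stood apart from it. At 9.74, 9.68, 9.48, 9.52 and 9.52 in banding and 9.17, 9.40, 9.55 and 9.53 in sham, its groups overlapped. Its difference of 0.17 ± 0.09 was not called (adjusted p = 0.203), with a 95% interval from -0.04 to 0.39 that lies below the interval of Pcolce, 2.01 to 2.65. The difference between these 2 genes was not tested directly.

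Further genes of both pathways, listed by function, held rises and falls in both lists. Among all genes above the dim level in either group, 29.8% were called higher and 32.2% lower. Of 44 measured further ER genes, 21 were called higher (47.7%), 4 lower (9.09%) and 19 were not called, with a median of 0.31. Unlike that background, the 44 include 2 genes dim in both groups, both uncalled. The rises with the smallest p were Creb3l2 (4.46-fold, adjusted p = 3.83e-05), a membrane-bound factor that raises secretory capacity, and Txndc5 (2.74-fold, adjusted p = 4.1e-05), a disulfide isomerase. Nupr1, a stress-induced chromatin protein, rose 5.04-fold. The translocon channel subunits Sec61a1 and Sec61b rose 2.99-fold and 2.27-fold, and the ER protein Erp29 1.68-fold. The 4 that fell were Tmx1, a membrane-bound oxidoreductase (1.79-fold), Chac1, which degrades glutathione (2.63-fold), and the sensors Atf6 (1.39-fold, adjusted p = 0.00143) and Ern1, which encodes IRE1 (1.64-fold, adjusted p = 0.0016).

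Among 27 measured further genes of collagen modification and export, 16 were called higher (59.3%), 3 lower (11.1%) and 8 were not called. Their median was 0.63, and 3 of the 27, all uncalled, were dim in both groups. Kdelr3, a receptor that returns escaped ER proteins from the Golgi, rose 6.17-fold (2.63 ± 0.14, adjusted p = 2.16e-05). The prolyl 3-hydroxylases P3h2 and P3h3 rose 5.31-fold and 4.28-fold. Sparc, a collagen-binding matricellular protein, rose 4.36-fold, Fkbp14, an ER prolyl isomerase, 2.82-fold, and Sec24d, a coat protein of export vesicles, 1.57-fold. Klhl12, an adaptor that enlarges those vesicles for collagen, fell 1.71-fold (adjusted p = 0.000243). P3h4, a partner of lysyl hydroxylase, fell 1.41-fold, and Tmem38b, an ER cation channel, 1.20-fold. The fibrillar collagen chains, all called higher, differed by 2.18 ± 0.08 for Col3a1, 3.18 for Col5a1, 3.42 for Col1a2, 4.005 for Col5a2 and 4.81 ± 0.19 for Col1a1.

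**Figure D3:**
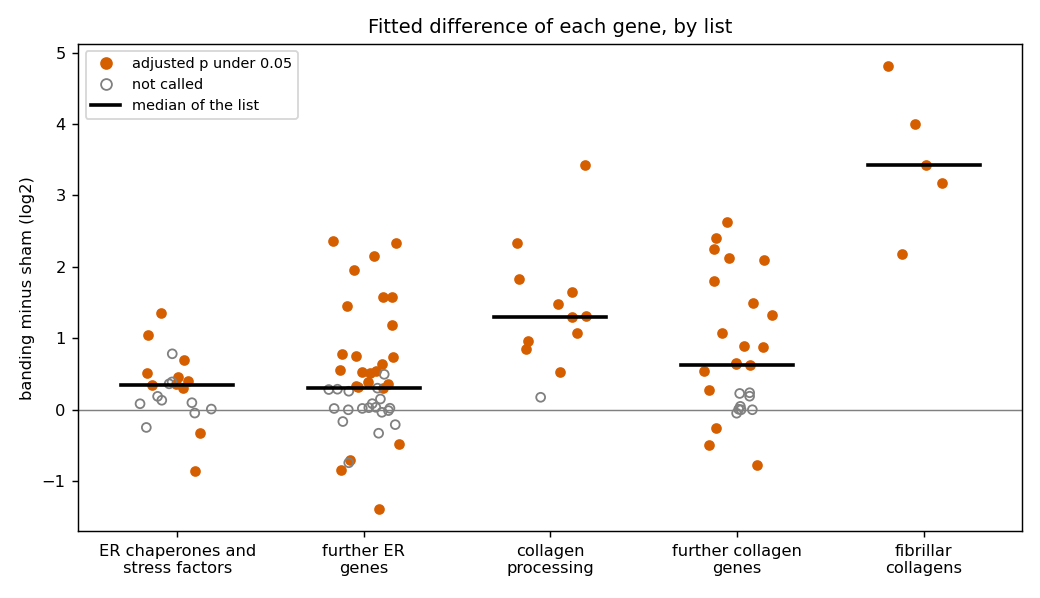
Fitted difference between banding and sham (log2) for each gene of 5 lists. Filled points were called at an adjusted p under 0.05, open points were not, and bars mark list medians. Medians run from 0.31 and 0.35 for the ER lists to 0.63 and 1.30 for the collagen lists and 3.42 for the fibrillar collagens.

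On single arrays the families did not rise and fall together. For the collagen members, the mean over the family lay 1.18 to 1.66 log2 units above the sham mean on the banding arrays. Banding replicate 2 was the highest banding array for 9 of 12 collagen members, and banding replicate 1 was the lowest for 6. On the fibroblast markers without Col1a1 those arrays stood at 11.80 and 11.84, the highest means of their group. For the ER members the mean lay 0.20 to 0.27 above sham on banding replicates 1 to 4 and 0.48 above it on replicate 5, which was the highest banding array for 12 of 21.

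Hepatocytes secrete proteins heavily and are rich in ER chaperones, so the hepatocyte values are set here beside those of the ER members. Banding replicate 5 had the highest hepatocyte marker mean of its group (4.75) and sham replicate 4 the highest of all (12.82). Sham replicate 4 was the highest sham array for 10 of 21 ER members, and sham replicate 3, with the least hepatocyte signal in its group (8.72), was the lowest for 12. The 4 sham arrays fell in the same order on the ER mean as on the hepatocyte mean. Without sham replicate 4 and banding replicate 5, 8 ER members were called higher and 2 lower, with a median of 0.32, and Hsp90b1 was the one lost (adjusted p = 0.0527). With a hepatocyte index as a covariate the counts were 9 and 2 and the median 0.44. The index averaged the 12 markers on the linear scale, each divided by its maximum. It was 1 on sham replicate 4, 0.063 to 0.167 on the other sham arrays and at most 0.00486 on banding arrays. All 11 called collagen members were called in both settings. In the leave-out setting, hepatocyte means still ran from 8.72 to 10.18 in sham and from 2.86 to 2.97 in banding. The part of this group-wide difference in the member calls was not tested. Plasma cells, another ER-rich cell type, had 4 of 6 markers dim in both groups, while Jchain and Sdc1 were called higher.

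**Figure D4:**
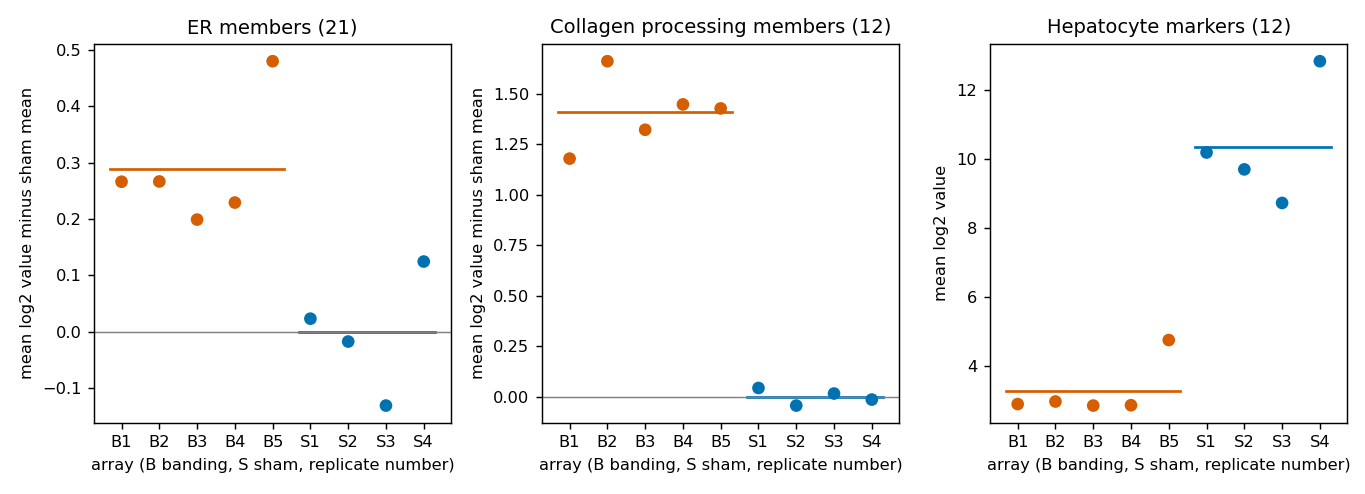
Per-array means for the 21 ER members and the 12 collagen members, as log2 units above their sham mean, and for the 12 hepatocyte markers, as log2 values. Orange points are banding arrays, blue points sham arrays, and lines the group means. Banding replicate 5 and sham replicate 4 are highest in their groups on the ER and the hepatocyte panels but not on the collagen panel.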

How the data were processed

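Right ventricular RNA was profiled on one-colour Affymetrix mouse arrays, 5 from banded and 4 from sham-operated mice. The authors deposited log2 values per probe set, already normalised between arrays; per the submitters' processing notes RMA and GCRMA were used, without version, role or order. Values between 2.198 and 16.43 showed the scale to be log2. Filters applied before deposit are not stated.

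Of 45101 probe sets, 64 controls, 9160 naming no gene and 932 naming several were left out. The remaining 34945 gave 18193 genes, each by its highest-mean probe set. No dim gene was filtered out. Banding was compared with sham by lmFit and eBayes in limma 3.58.1 (R 4.3.3), two-sided, without covariates, and p-values were adjusted over all 18193 genes. The fit was tested on simulated data. Array measures were compared by exact permutation, two-sided. RefSeq promoters were searched with Python 3.11.15.

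All members are named. Further pathway genes were named by up to 6 smallest p per direction, and the fibrillar collagens in full. The members and lists were chosen with earlier results of these data known. Replicate numbers gave no sign of pairing between arrays (correlations of same-numbered deviations from -0.0294 to 0.0361), a check that cannot exclude pairing. Alternatives covered probe sets, dim values, scaling, the variance model, pairing, liver transcripts, the class of P4hb and each array left out.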

Additional observations from a re-analysis of the deposited data

Results flagged for a closer look

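Of 66 groups of member values (33 genes in 2 groups), 7 held an array whose gap to the rest exceeded Dixon's 95% critical value. Chance alone marks about 1 group in 20 where values are normal, untied and independent between genes. Hyou1 had the same value on 6 of the 9 arrays, and all members share the arrays, so an excess over that rate was not tested. Banding replicate 5 stood high for 3 ER members. Hspa5 was 13.54 there against 13.00 to 13.15 on the other banding arrays, Hyou1 was 7.04 against 6.52 to 6.63, and Sdf2l1 was 7.13 against 5.63 to 5.95. Sham replicate 3 stood low for Hyou1, at 6.26 against 6.52 on each other sham array, and for Canx, at 12.21 against 12.63 to 12.70. Sham replicate 4 stood high for Edem1, at 8.005 against 7.32 to 7.40. Banding replicate 2 stood high for P4ha1, at 9.99 against 9.44 to 9.55. Banding replicate 5 and sham replicate 4 also had the most hepatocyte signal of their groups and sham replicate 3 the least of its group. The part of that signal in these values was not tested gene by gene.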

How the results depend on the processing

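Under 20 alternatives fitted for each member, direction and side of the threshold held for 11 of 12 collagen members (all but Plod1) and for 7 of 21 ER members, among them Pdia3, Manf, Edem1 and Herpud1; an uncalled gene that changed only its sign counts as held. Hspa5, Hyou1, Canx, Sel1l, Ddit3 and Trib3 were uncalled and changed sign under some alternative, so none has a direction here. With the replicate block, in which banding replicate 5 has no partner and so drops out, 3 ER members were called higher and 1 lower, and 5277 genes were called in all. Collagen calls stayed at 11 under each alternative fit except the mean of all probe sets, which gave 10. That mean also took the ER median to 0.24, with 11 ER members called higher, Atf4, Sel1l and Trib3 gained and Calr lost. Filtering out dim genes, which leaves fewer genes to adjust over, gained Sdf2l1, Pdia4 and Creld2 (12 higher). Leaving out suffix-marked probe sets (_s_at or _x_at) replaced the one chosen for Hspa5, Hyou1, Canx and Xbp1. Hspa5 then differed by 0.02, and Canx was added as lower (-0.32, adjusted p = 0.0495). Testing all probe sets singly called 10960 of them. Leaving out each replicate gave 6 to 9 ER members higher, 6 without sham replicate 2, and 2 lower each time. Centring arrays on their medians, quantile normalisation, flooring and the trend and robust fit each kept the ER counts at 9 and 2. The cause of the other changes was not tested. With so few arrays, ER differences near 0.35 log2 units lay at the edge of what was called.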

Other observations

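Some genes that ATF4 is known to control are on the further ER list and were singled out here after their values were seen. Asns, which makes asparagine, was 3.90-fold higher in banding (adjusted p = 0.000817), and Atf3, a stress-induced factor, was 5.12-fold higher (adjusted p = 0.00732). Chac1 was 2.63-fold lower (adjusted p = 0.00563), while Trib3 and Ddit3 were not called. Eif2ak3, which encodes the sensor PERK, was 1.67-fold higher (adjusted p = 0.00322), opposite in sign to the sensor genes Atf6 and Ern1. Creb3l1, a membrane-bound factor tied to collagen secretion, was 4.76-fold higher (adjusted p = 0.000247), and the cyclophilin Ppib, a partner of Crtap, was 2.12-fold higher.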
